A study of Mus musculus with 9 samples.

Results

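Transcripts of the cytosolic ribosomal proteins, the protein subunits of the ribosomes that translate nuclear-encoded messages, were followed in synaptoneurosomes of the mouse hippocampus. Members were the genes with a symbol beginning Rpl or Rps followed by a number, with Rplp0, Rplp1, Rplp2 and Rpsa, while S6 kinases and symbols marked as pseudogenes were left out. The rule found 85 of the 22255 genes in the table, 52 of the large subunit and 33 of the small subunit. Of these, 77 were canonical subunits and 8 were paralogs, related gene copies, some of which encode an alternative form of a subunit.

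Synaptoneurosomes are obtained by breaking up tissue and keeping the resealed synaptic endings, so that their RNA is enriched in messages kept near synapses. All animals were Fmr1 KO mice of the C57Bl/6J strain; Fmr1 loss models fragile X syndrome. AM6545, a CB1 cannabinoid receptor antagonist that barely reaches the brain, was given sub-chronically to the treated group (n = 4, samples A, B, C and E), and vehicle to the controls (n = 5, samples A to E). No age, sex, dose or number of animals per sample is given in the labels, and wild-type samples are not analysed here. Nothing in the labels says that the samples are separate animals, so the p-values measure the spread between these samples, which may be technical.

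A ribosome holds a single copy of nearly every subunit protein, so cells make these proteins in matched amounts. Many of their messages start with a run of pyrimidines at the 5′ end, the terminal oligopyrimidine (TOP) tract, through which mTOR signalling and LARP1 adjust their translation and stability. In neurons they are among the messages found in dendrites and axons, and loss of FMRP, the protein encoded by Fmr1, is known to alter translation at synapses.

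The start windows of some members from across the range of differences are shown here because this tract is the sequence feature that the family is known for. Each window holds 30 bases centred on the RefSeq start (GRCm38.p6), written 5′ to 3′ on the gene's strand. Capitals mark a C followed by at least 4 pyrimidines, beginning within 10 bases of the start on the transcribed strand.
Rps27, chr3:90213634-90213663, minus strand: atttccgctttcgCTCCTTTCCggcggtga
Rpl38, chr11:114668565-114668594, plus strand: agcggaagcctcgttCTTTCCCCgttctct
Rps26, chr10:128626492-128626521, minus strand: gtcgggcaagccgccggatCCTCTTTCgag
Rpl31, chr1:39367836-39367865, plus strand: cttcctcctcgCCTCCCCgtgacccggaag
Rpl22l1, chr3:28805493-28805522, plus strand: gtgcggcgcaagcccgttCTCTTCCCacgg
Rps6, chr4:86857353-86857382, minus strand: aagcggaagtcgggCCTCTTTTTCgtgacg
Rpl6, chr5:121204486-121204515, plus strand: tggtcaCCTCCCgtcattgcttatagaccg
Rpl10, chrX:74270801-74270830, plus strand: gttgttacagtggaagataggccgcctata
Rpl4, chr9:64173372-64173401, plus strand: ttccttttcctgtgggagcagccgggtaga
Such a tract was found for 40 of the 65 members with a start in the RefSeq table (61.5%), against 34.4% of all 27025 genes there. Tracts occurred at both ends of the range: Rps27 and Rpl38, with the most negative differences, hold one, and so does Rpl6, with the smallest. The stretch marked for Rpl6 ends before the RefSeq start. Starts without a tract also occurred at both ends: Rps28 (-0.47) and Rpl41 (-0.44), and Rpsa (-0.05), Rplp0 (-0.04) and Rpl4 (-0.03). Members with a tract had a median log2 fold change of -0.26 and those with a start but no tract had -0.27. The definition of the tract was chosen with the results known. A start that RefSeq places a few bases off would hide a tract, and a marked stretch may lie outside the transcript.

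All 9 samples were sequenced to between 17628922 and 27263393 estimated counts. Markers of neurons (Snap25, Syt1, Rbfox3, Slc17a7, Gad1, Camk2a) summed to between 6242 and 8388 CPM, the counts of a gene scaled to the size of its library, and markers of hippocampal neurons (Prox1, C1ql2, Wfs1, Fibcd1, Neurod6) to between 745 and 913 CPM. Fmr1, the targeted gene, was counted in every sample, at 10.1 ± 0.754 CPM in AM6545 (SD, n = 4) and 11.7 ± 1.18 CPM in vehicle (SD, n = 5); which part of it is deleted is not stated, so its counts check no label. Some vehicle samples stood apart from the rest. The 7 choroid plexus markers summed to 3990 CPM in vehicle A, 4324 in vehicle D and 2131 in vehicle E, against 47.4 to 924 CPM in the other 6 samples, with Aqp1 at 0 in vehicle C. The 4 pituitary markers summed to 78.1 CPM in vehicle A and to between 0.636 and 1.96 CPM elsewhere, with Gh, Prl and Cga each at 0 in at least 1 sample. The 3 erythrocyte markers summed to 851 CPM in vehicle A and to 179 to 490 CPM in the others. In bulk samples, a change in the share of cells and a change in RNA per cell cannot be told apart.

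Ribosomal protein transcripts as a group were most abundant in vehicle A, intermediate in vehicle C and D, and alike in the other samples. They made up 0.716% of counts in vehicle A (95% Wilson interval 0.712% to 0.720%), 0.613% in both vehicle C and vehicle D, 0.524% in vehicle E and 0.495% in vehicle B. In AM6545 samples their share was 0.527% in A, 0.527% in B, 0.511% in C and 0.494% in E. The groups overlapped, since vehicle B and vehicle E lay within the AM6545 range. Means were 0.515% ± 0.0156 with AM6545 (SD, n = 4) and 0.592% ± 0.0870 with vehicle (SD, n = 5). The difference between the means was thus smaller than the SD of the vehicle group.

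Both subunits followed this order. The ratio of small-subunit to large-subunit counts was 0.536 ± 0.0205 in AM6545 (SD, n = 4) and 0.547 ± 0.0179 in vehicle (SD, n = 5), so the balance between subunits differed by less than the spread between samples. It ran from 0.508 in AM6545 B to 0.568 in vehicle C.

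**Figure D1:**
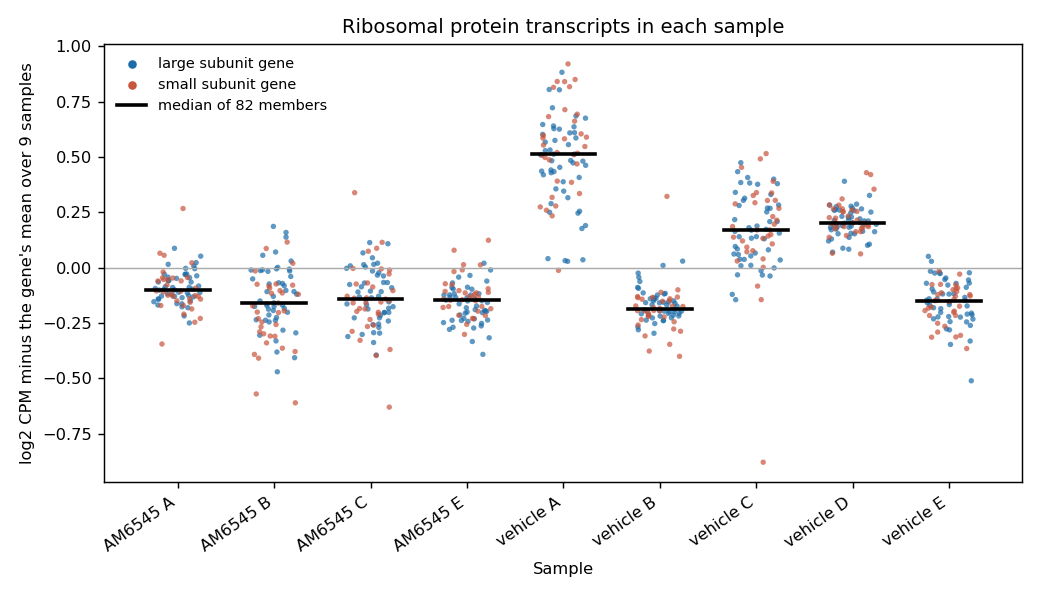
Each point is 1 of the 82 tested members, plotted as its log2 CPM in a sample minus the gene's mean over the 9 samples, with large-subunit genes in blue, small-subunit genes in red and the median as a black bar. The median is 0.51 in vehicle A, 0.17 in vehicle C and 0.20 in vehicle D, and between -0.19 and -0.10 in the other 6 samples, vehicle B and E among them.

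The comparison of AM6545 with vehicle asks which synaptic transcripts differ after treatment. Of the 85 members, 82 passed the filter on low counts and were tested with the other genes, 14512 in all. By edgeR's quasi-likelihood test with Benjamini-Hochberg adjustment, 0 members had an adjusted p under 0.05, as did 0 of all genes tested (0%), and the smallest adjusted p of a member was 0.653. At an unadjusted p under 0.05, 29 of 82 members were lower with AM6545, where 4.18% of all tested genes were, and 0 were higher, where 3.03% were. The log2 fold change, AM6545 minus vehicle, was below 0 for all 82 members, against 51.8% of all tested genes; its median was -0.27 over members and -0.009 over all genes. With other size factors (RLE, total counts, upper quartile) the member nearest 0, Rpl6, stayed below it, at -0.0048, -0.020 and -0.018. Scaling to the summed members takes out any shift they share, so it cannot show their direction. In that scaling 57 of 82 were below 0, and the median over all genes moved from -0.009 to 0.16. With limma-voom sample weights 73 of 82 were below 0, and with each sample's length trend removed 54 of 82 were, or 77 of 82 with another definition of length. Leaving out single samples also put some members above 0. These were Rpl8, Rplp0, Rps2, Rps27rt and Rpsa without vehicle A, and Rpl4, Rpl6, Rpl8, Rplp0 and Rpsa without AM6545 E. They were Rpl4, Rpl6, Rpl8 and Rplp0 without vehicle D, Rps9 without vehicle C and Rps27rt without AM6545 B. With a block for the title letter, Rpl4, Rpl6 and Rplp0 were above 0.

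Few members separated the groups sample by sample. Only Rpl10 and Rpl7l1 had every AM6545 sample below every vehicle sample, 2 of 82 members against 0.868% of all tested genes, and 0 members had the reverse, against 0.579%. Vehicle A was the highest of the 9 samples for 74 of 82 members (17.9% of all tested genes), a count made after the values were seen. Of the other 8 members, 4 were highest in vehicle D, 3 in vehicle C and 1 in AM6545 B. Vehicle A, C and D each lay above all AM6545 samples for 67 of 82 members (7.39% of all tested genes); these 3 samples were picked because the members were high in them, so this count only describes the same pattern. The SD of log2 CPM was larger in vehicle than in AM6545 for 76 of 82 members (56.7% of all tested genes), with a median of 0.30 in vehicle and 0.10 in AM6545.

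The count of members rested on which samples were included. It was 8 of 82 without vehicle A, 14 without vehicle C, 17 without vehicle D, 11 without AM6545 B and 12 without AM6545 C. It was 54 without vehicle B and 51 without vehicle E, the 2 vehicle samples at the AM6545 level. The 4.18% of all tested genes belongs to the fit of all samples. The shares of all tested genes in these fits are not given here, so the counts are not set against them. The median log2 fold change was -0.16 without vehicle A and -0.35 without vehicle E. The 8 members at an unadjusted p under 0.05 without vehicle A were Rpl10, Rpl17, Rpl31, Rpl38, Rps26, Rps27, Rps27a and Rps29, and all 8 were among the 29.

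Markers of other cell types moved with the ribosomal protein share in some samples. Choroid plexus markers summed to 3990 CPM in vehicle A, 307 in vehicle B, 47.4 in vehicle C, 4324 in vehicle D and 2131 in vehicle E, and to 689, 540, 59.9 and 924 CPM in AM6545 A, B, C and E. Vehicle A and D were thus high in both, vehicle B and the AM6545 samples were low in both, vehicle C was low in choroid plexus markers with a share of 0.613%, and vehicle E was high in them with a share of 0.524%. With the choroid plexus level as a covariate, 21 of 82 members were lower at an unadjusted p under 0.05, with a median log2 fold change of -0.26. The share of all tested genes in that fit is not given here. Vehicle A, with the highest ribosomal protein share, also had the highest sums of pituitary and erythrocyte markers. The same sample was highest for oligodendrocyte markers (22473 CPM, against 10736 to 18815 in the others) and ependymal markers (31.1 CPM, with 28.4 in vehicle D and 13.7 to 23.4 elsewhere). Mitochondrially encoded genes made up 7.90% of its counts, against 4.06% to 6.73% in the others. It had the lowest sums for neurons, at 6242 CPM, and for hippocampal neurons, at 745 CPM. Vehicle C, with a share of 0.613%, went the other way for some of these markers. It had the highest sum for neurons, 8388 CPM, and the lowest for oligodendrocytes, 10736 CPM, with hippocampal neurons at 788 CPM. Beyond the fit with the choroid plexus covariate, the part of these values in the result was not tested.

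The large-subunit proteins build the side of the ribosome that forms peptide bonds. Of 49 tested large-subunit genes, 16 were lower at an unadjusted p under 0.05 and 0 higher, with a median log2 fold change of -0.27. The smallest p belonged to Rpl38, a small surface protein known from the tail-short mouse, in which its loss disturbs the body plan. Rpl38 (ENSMUSG00000057322.13) was at 20.003, 17.5, 17.7 and 21.1 CPM in AM6545 A, B, C and E. In vehicle A to E it was at 43.0, 20.2, 30.4, 26.3 and 22.2 CPM. Vehicle B lay within the AM6545 range and the other 4 vehicle samples above it. The log2 fold change was -0.57 (SE 0.18, edgeR adjusted p = 0.653).

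Rpl10, which joins the large subunit late in its assembly, was at 34.9, 35.1, 36.8 and 32.5 CPM in AM6545 A, B, C and E. In vehicle A to E it was at 55.9, 40.04, 40.3, 44.2 and 37.7 CPM. The groups did not overlap, though the gap between AM6545 C and vehicle E was small beside the spread within vehicle. Its log2 fold change was -0.32 (SE 0.12, edgeR adjusted p = 0.653). In GENCODE M21, 15 other genes hold stretches at least 95% identical to Rpl10, of which 1 is in the table, so part of its count is uncertain.

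Rpl41, the shortest protein of the ribosome at 25 residues, was at 72.5 to 82.6 CPM in AM6545 and at 157.1, 73.2, 111.8, 109.0 and 75.9 CPM in vehicle A to E. It shows the common pattern, in which vehicle B and E equal the treated samples, and it was chosen after its values were seen. Its log2 fold change was -0.44 (SE 0.18, edgeR adjusted p = 0.653). Rpl39, another very short protein near the peptide exit tunnel, ran from 8.22 to 11.1 CPM in AM6545 and from 7.99 CPM in vehicle E to 18.9 CPM in vehicle A. It had 1 of the 3 largest vehicle SDs of log2 CPM, 0.50, and a log2 fold change of -0.40 (SE 0.21).

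The stalk proteins Rplp0, Rplp1 and Rplp2, which recruit elongation factors, had estimated differences of unlike size. Rplp0, the base of the stalk, was at 183.4, 187.7, 181.6 and 163.2 CPM in AM6545 A, B, C and E and at 214.8, 166.6, 163.4, 206.1 and 166.3 CPM in vehicle A to E. Only vehicle A and D lay above the AM6545 range, and the log2 fold change was -0.04 (SE 0.11), turning to 0.03 without vehicle A. Rplp1 had a log2 fold change of -0.25 (SE 0.16) and Rplp2 of -0.32 (SE 0.15). The differences between the 3 stalk genes were not tested.

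Large-subunit genes at the other end of the range encode long proteins. Rpl4, which lines the exit tunnel, was at 336.1, 381.5, 375.0 and 285.8 CPM in AM6545 A, B, C and E and at 353.7, 340.8, 338.7, 393.4 and 328.3 CPM in vehicle A to E. The groups overlapped throughout, and the log2 fold change was -0.03 (SE 0.11), turning to 0.05 without AM6545 E and to 0.02 without vehicle D. Rpl3, at the peptidyl transferase centre, averaged 296.2 ± 26.2 CPM with AM6545 (SD, n = 4) and 308.5 ± 30.4 CPM with vehicle (SD, n = 5), and its log2 fold change was -0.06 (SE 0.10). Rpl5, which carries 5S ribosomal RNA into the subunit, averaged 128.8 ± 11.4 CPM with AM6545 (SD, n = 4) and 140.8 ± 10.2 CPM with vehicle (SD, n = 5), and its log2 fold change was -0.13 (SE 0.10). Rpl6, singled out after its values were seen, had the smallest difference of all members, -0.01 (SE 0.11).

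**Figure D2:**
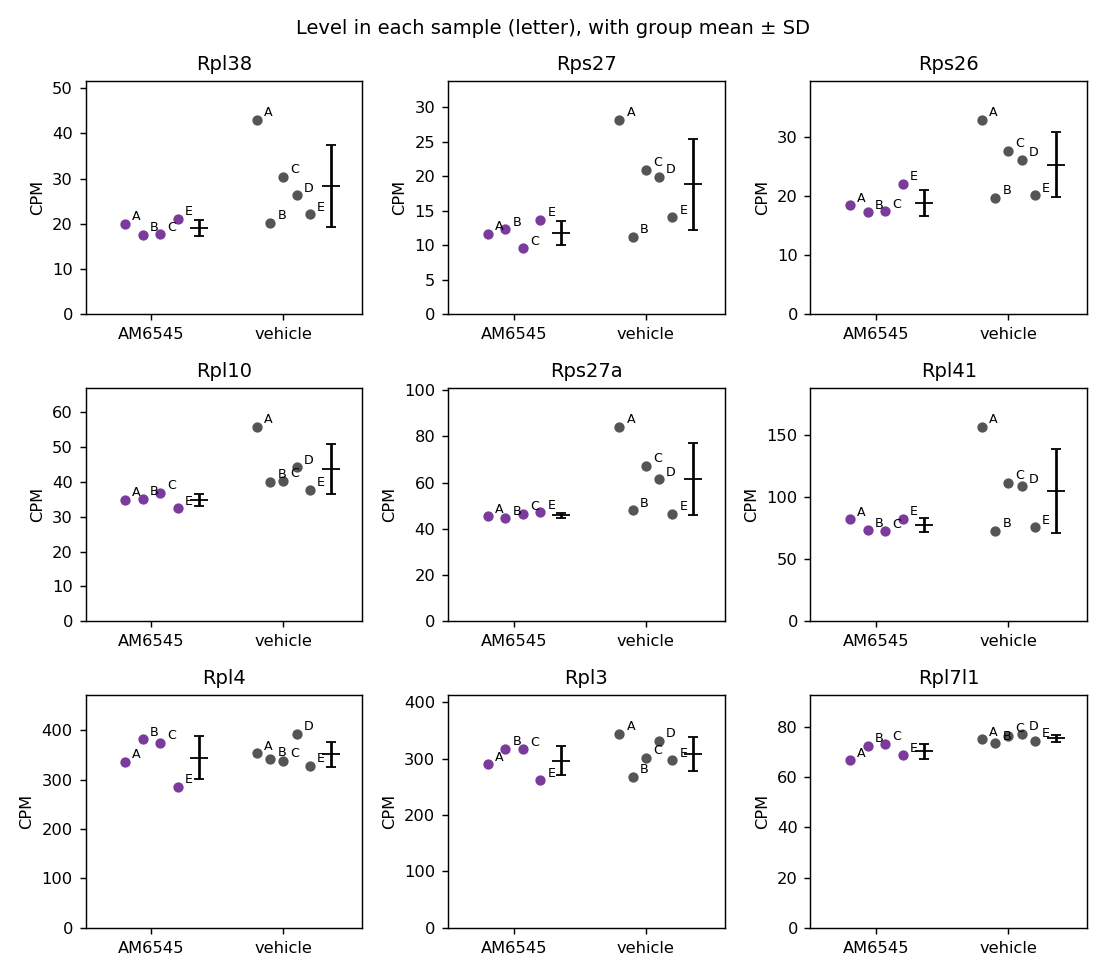
CPM of 9 members in each sample, lettered, with the AM6545 group in purple, the vehicle group in grey and the group mean ± SD beside it. Vehicle A is highest for Rpl38, Rps27, Rps26, Rpl10, Rps27a and Rpl41 with vehicle B and E near the AM6545 samples, while the groups overlap for Rpl4 and Rpl3 and lie close together for Rpl7l1.

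Small-subunit proteins shape the side of the ribosome that reads the message. Of 33 tested genes, 13 were lower at an unadjusted p under 0.05 and 0 higher, with a median log2 fold change of -0.29. Rps27, a zinc-finger protein of the small subunit, had the largest difference of all members. It was at 11.7, 12.3, 9.57 and 13.7 CPM in AM6545 A, B, C and E and at 28.2, 11.2, 20.9, 19.9 and 14.1 CPM in vehicle A to E. Vehicle B lay within the AM6545 range, vehicle E just above it and vehicle A, C and D well above it. The log2 fold change was -0.67 (SE 0.22, edgeR adjusted p = 0.653). Its message is nearly identical to that of Rps27rt in M21, so the split of reads between the 2 genes is uncertain.

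Rps26, which contacts the message upstream of the start codon, was at 18.4, 17.2, 17.4 and 22.05 CPM in AM6545 A, B, C and E and at 32.8, 19.7, 27.6, 26.04 and 20.1 CPM in vehicle A to E. Vehicle B and E again lay within the AM6545 range. The log2 fold change was -0.42 (SE 0.15, edgeR adjusted p = 0.653). Rps27a, made as a fusion with ubiquitin, was at 45.4, 44.5, 46.4 and 47.1 CPM in AM6545 A, B, C and E and at 84.2, 47.98, 67.3, 61.4 and 46.4 CPM in vehicle A to E. AM6545 spanned 44.5 to 47.1 CPM, and vehicle B and E lay close above or within that range while vehicle A, C and D lay well above it. The log2 fold change was -0.42 (SE 0.15, edgeR adjusted p = 0.653).

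Rps6, the target of the S6 kinases used to read mTOR activity at the protein level, was at 169.7, 162.8, 163.4 and 156.7 CPM in AM6545 A, B, C and E and at 205.9, 150.5, 190.8, 196.6 and 160.5 CPM in vehicle A to E. The log2 fold change was -0.15 (SE 0.11, edgeR adjusted p = 0.701). Rpsa, a small-subunit protein also known as the laminin receptor, averaged 130.4 ± 13.7 CPM with AM6545 (SD, n = 4) and 134.7 ± 18.9 CPM with vehicle (SD, n = 5), and its log2 fold change was -0.05 (SE 0.12). Rps9, near the channel through which the message enters, ran from 127.2 to 182.8 CPM in AM6545 and from 136.6 to 241.3 CPM in vehicle; its highest sample was vehicle C, not vehicle A. All 3 genes differed by less than the spread between samples.

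Per kilobase of transcript, levels spread widely although the proteins are needed in matched amounts. Rpl13 was the highest at 328 CPM per kilobase, followed by Rpl4 at 226, Rpl3 at 224, Rps9 at 206 and Rps6 at 197. That order depends on the transcript length used. With the median length over all protein-coding transcripts of a gene, in place of the principal ones, Rpl3 was the highest at 371 CPM per kilobase and Rpl13a and Rplp0 entered the first 5, at 215 and 212. Under principal transcripts Rps15a and Rps20 are assigned 5130 and 3706 bases, long for proteins of 130 and 119 residues, so their levels per kilobase are uncertain.

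**Figure D3:**
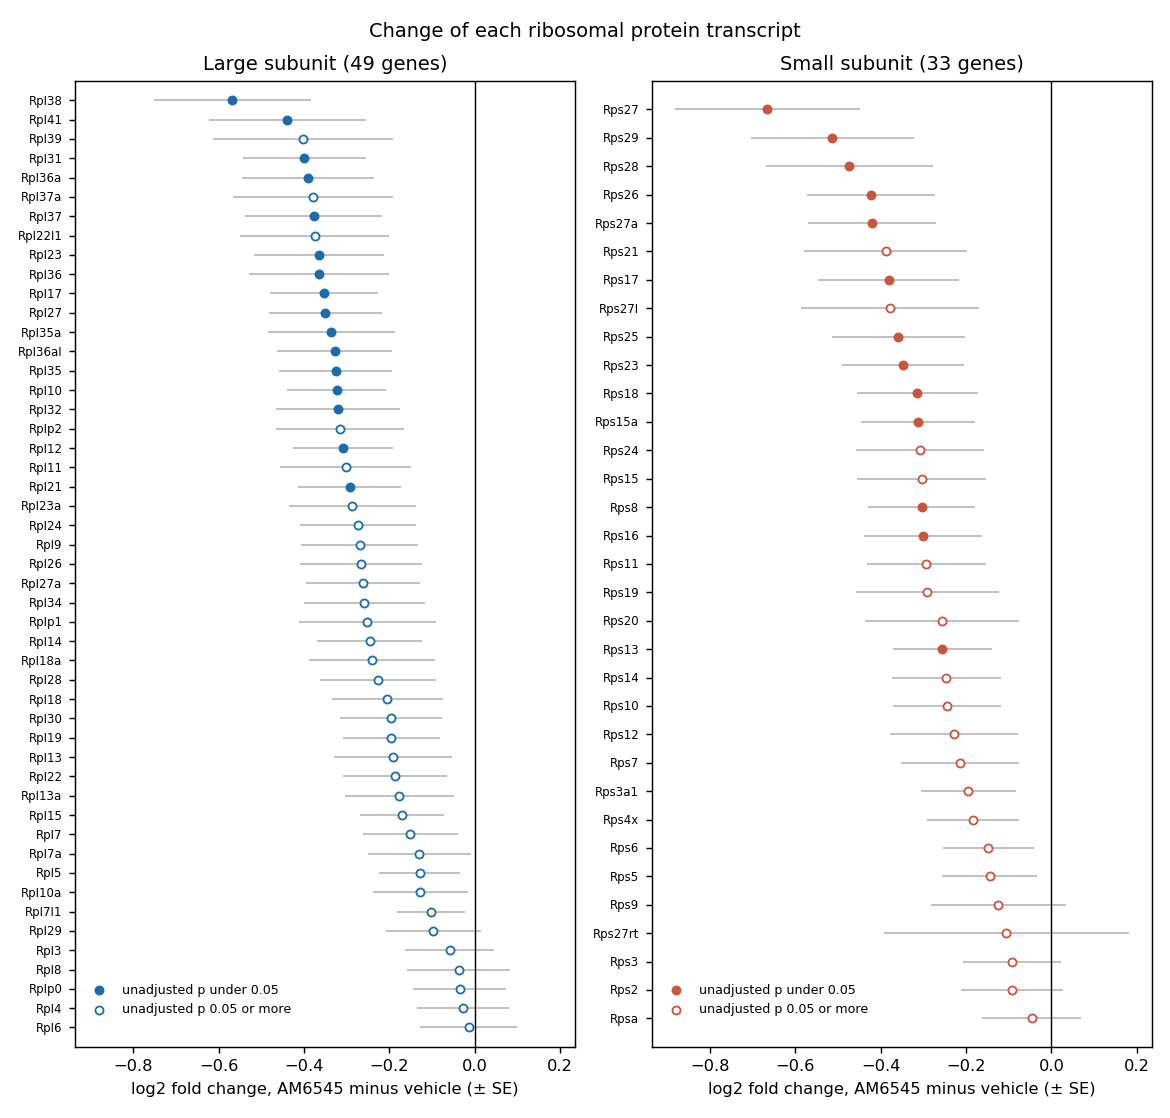
Log2 fold change of AM6545 minus vehicle, with its SE, for the 49 large-subunit and 33 small-subunit genes tested, ordered by size, filled where the unadjusted p was under 0.05. Values run from -0.67 for Rps27 to -0.01 for Rpl6, and no member passed the adjusted threshold.

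Differences were graded by the size of the encoded protein, a pattern noticed after the values were seen and described without a test. Among canonical members, the 25 genes for the shortest proteins (25 to 133 residues) had a median log2 fold change of -0.36, with 14 at an unadjusted p under 0.05. The 27 genes of middle length had a median of -0.29, with 12. The 25 genes for the longest proteins (194 to 419 residues) had a median of -0.14, with 2. Across the 82 tested members, which share the same 9 libraries and are not independent replicates, Pearson's r of log2 fold change with residues was 0.79 and Spearman's rho 0.78. Without vehicle A these were 0.62 and 0.64. Over the same 82 members the log2 fold change also went with the mean log2 CPM of the gene (r 0.62, rho 0.65) and with principal transcript length (r 0.31, rho 0.55), and these were not separated from protein size.

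Transcripts outside the family showed a gradient with length too. With principal transcripts, members under 600 bases had a median log2 fold change of -0.36 (23 genes) and the other tested genes of that length -0.31 (142 genes). From 600 to 1000 bases the medians were -0.27 (35 members) and -0.20 (665 other genes). From 1000 to 2000 bases they were -0.19 (20 members) and -0.06 (3071 other genes), and other genes of at least 4000 bases had 0.03. With lengths over all coding transcripts the other genes stood farther from the members. Their median was -0.10 under 600 bases (455 genes), where the members had -0.33 (28 genes), and -0.09 from 600 to 1000 bases (1895 genes), where the members had -0.26 (39 genes).

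Libraries differed in this gradient. The Spearman correlation between principal transcript length and level relative to the mean of samples was taken across 14441 genes. Lengths over all coding transcripts were not used for it. The correlation was -0.19 in vehicle A, -0.06 in vehicle C and -0.29 in vehicle D. It was 0.15 in vehicle B, 0.01 in vehicle E, between 0.04 and 0.06 in AM6545 A, B and C, and 0.31 in AM6545 E. The 3 vehicle samples with high ribosomal protein levels were thus the 3 with negative values. AM6545 E had the highest value and a ribosomal protein share of 0.494%, close to the 0.495% of vehicle B at 0.15.

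Removing each sample's length trend lowered the members' difference by an amount that depended on the definition of length. With principal transcripts, 3 of 82 members were lower at an unadjusted p under 0.05 (Rpl12, Rpl17 and Rps15a), and the median log2 fold change was -0.05. In the main fit 4.18% of all tested genes were lower at that level. Shares of all tested genes in the fits without the length trend are not given here, so the member counts are not set against them. Rps15a is the member assigned an uncertain 5130 bases; its log2 fold change was -0.36 there and -0.21 with the other lengths, under which it was not among the members at that level. With lengths over all coding transcripts, 15 were lower at that level, Rpl38, Rps27, Rps26 and Rpl10 among them, and the median was -0.19. The first definition used was the one over all coding transcripts; principal transcripts were adopted after its results were seen, because it gave implausible lengths such as 816 bases for Rpl3, whose protein has 403 residues. Neither value is therefore preferred here, and transcript length and membership of the family cannot be told apart in these libraries.

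**Figure D4:**
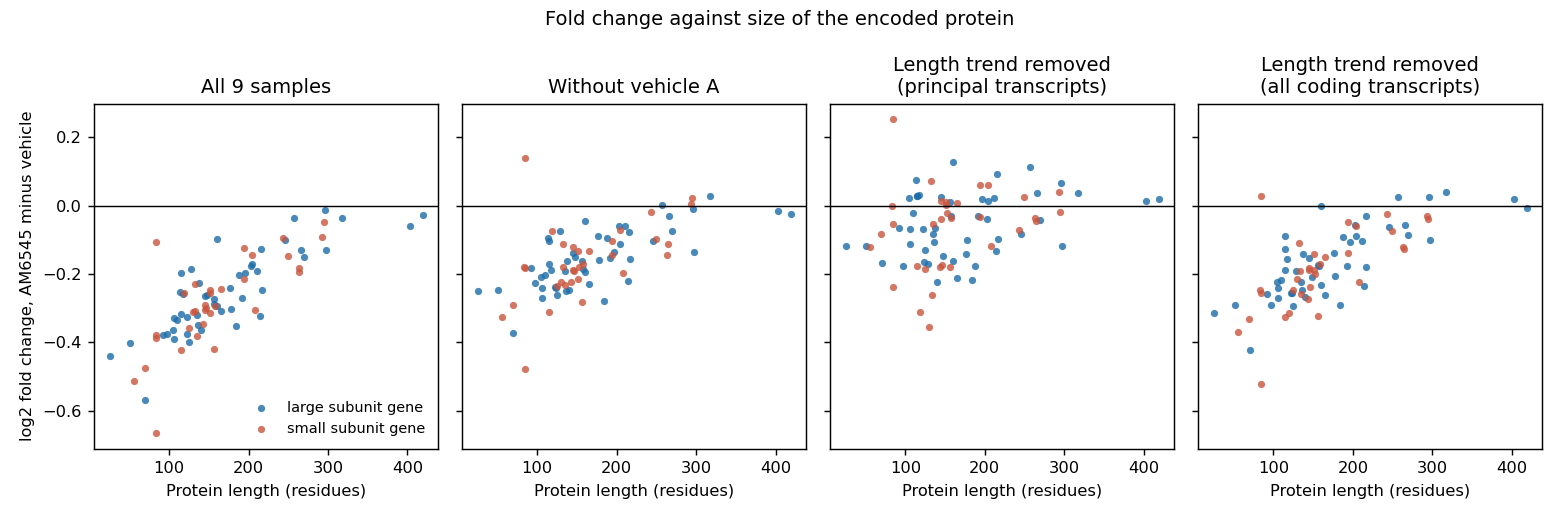
Log2 fold change of AM6545 minus vehicle against protein length in residues for the 82 members, in all 9 samples, without vehicle A, and after each sample's length trend was removed with 2 definitions of transcript length. Pearson's r is 0.79 in the first panel and 0.62 without vehicle A, and the medians of the last 2 panels are -0.05 and -0.19.

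Paralogs were read apart because some of them can replace their parent in a ribosome. Of the 8 paralogs, 3 did not pass the count filter. Rpl10l, a testis form of Rpl10, had 0 counts in all 9 samples. Rpl39l, a testis form of Rpl39, had 1 count in vehicle B, 6 in vehicle E and 0 elsewhere. Rpl3l, the form of Rpl3 made in heart and skeletal muscle, had 2 to 13 counts per sample.

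Of the 5 tested paralogs, Rpl36al was lower at an unadjusted p under 0.05 and none was higher. Rpl22l1 exceeded its parent Rpl22 in CPM per kilobase in every sample, by 5.36, 5.25, 5.53 and 5.68 times in AM6545 A, B, C and E and by 6.51, 4.92, 8.04, 6.49 and 5.02 times in vehicle A to E. The ratio was again highest in vehicle A, C and D, and the groups overlapped (5.45 ± 0.188, SD, n = 4, against 6.20 ± 1.28, SD, n = 5). Rpl22 is assigned 2048 bases, so the size of this ratio depends on its transcript model. Rpl22l1 itself had a log2 fold change of -0.37 (SE 0.18, edgeR adjusted p = 0.653) and Rpl22 of -0.19 (SE 0.12).

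The other ratios also overlapped between groups. Rpl36al to Rpl36a was 1.57 ± 0.0882 in AM6545 (SD, n = 4) and 1.51 ± 0.0675 in vehicle (SD, n = 5). Rpl7l1 to Rpl7 was 0.479 ± 0.0353 (SD, n = 4) and 0.469 ± 0.0615 (SD, n = 5). Rpl7l1, whose product acts in assembling the large subunit, was the steadiest member in vehicle, at 74.99, 73.4, 76.3, 77.2 and 74.4 CPM in vehicle A to E and 66.5, 72.4, 73.1 and 68.6 CPM in AM6545 A, B, C and E. Its groups did not overlap, and the log2 fold change was -0.10 (SE 0.08, edgeR adjusted p = 0.717). On either strand, 107 other M21 genes hold stretches similar to it, unrelated genes such as Cntnap2 and Madd among them.

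Rps27l and Rps27rt were the least even paralogs. Rps27l, a p53-responsive form, stood at 0.687 ± 0.168 of Rps27 in AM6545 (SD, n = 4) and 0.565 ± 0.0702 in vehicle (SD, n = 5). Rps27rt stood at 0.491 ± 0.195 (SD, n = 4) and 0.343 ± 0.171 (SD, n = 5), falling as low as 0.141 in vehicle C. It had the largest vehicle SD of log2 CPM of all members, 0.66, at levels of 3.20 to 10.8 CPM.

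**Figure D5:**
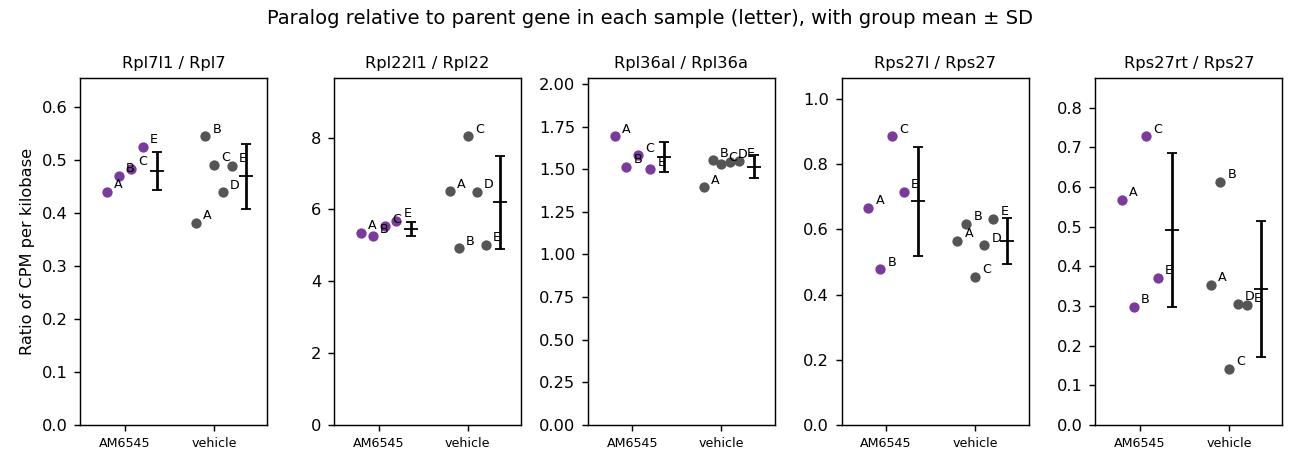
Ratio of CPM per kilobase of each tested paralog to its parent gene in every sample, lettered, with the group mean ± SD. The AM6545 and vehicle samples overlap for all 5 pairs, and Rpl22l1 to Rpl22 is the pair with ratios of 4.92 or more throughout.

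Genes that act with the ribosome were read for comparison. Of the fusion and associated genes, 0 of 2 were at an unadjusted p under 0.05 in either direction. Fau, made as a fusion of a ubiquitin-like protein and the small-subunit protein eS30, had a log2 fold change of -0.29 (SE 0.15), with 64.1 CPM in vehicle A and 34.1 to 39.1 CPM in AM6545. Rack1, a signalling scaffold on the small subunit, had a log2 fold change of 0.03 (SE 0.10).

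Other genes listed as having TOP messages, mostly translation factors, had 0 of 18 at an unadjusted p under 0.05 and a median log2 fold change of -0.07. Their 5′ ends were not looked at gene by gene here. Naca, of the nascent-chain complex, had the smallest p among them (-0.20, SE 0.11). Their median transcript length was 1891 bases against 779 bases for the members. Of 26 ribosome biogenesis genes, 1 was lower (Nop10, -0.37, SE 0.16) and 1 higher (Heatr1, 0.28, SE 0.12) at that level, with a median of 0.08. Nop10, a short protein of the pseudouridylation complex, was named after its values were seen. Of 8 ribosome rescue genes 0 were in either direction, with Ltn1, the ubiquitin ligase of stalled chains, at 0.20 (SE 0.11).

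Among 8 TOP regulators and S6 kinases, 0 were lower and 1 higher at an unadjusted p under 0.05. That gene, Larp1, which binds the TOP tract, was at 87.9, 91.9, 77.7 and 82.03 CPM in AM6545 A, B, C and E and at 71.3, 79.9, 76.6, 68.4 and 73.3 CPM in vehicle A to E. The groups overlapped at AM6545 C and vehicle B, and the log2 fold change was 0.20 (SE 0.09, edgeR adjusted p = 0.653).

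Nuclear genes for the mitochondrial machinery, also mostly short, were set beside the members. Of 78 mitochondrial ribosomal proteins, 10 were lower and 0 higher at an unadjusted p under 0.05, with a median log2 fold change of -0.13. Their median length was 1255 bases, longer than that of the members. Mrpl18 had the smallest p (-0.30, SE 0.11). Of 92 oxidative phosphorylation genes, 32 were lower and 0 higher, with a median of -0.26 and a median length of 865 bases; Atp5mpl, a 58-residue protein of ATP synthase, had -0.54 (SE 0.16). The share of oxidative phosphorylation genes at that level, 34.8%, lay beside 35.4% for the ribosomal proteins; the difference was not tested. Vehicle A was the highest sample for 60 of these 92 genes and for 31 of the 78 mitochondrial ribosomal protein genes. Over all tested genes it was the highest for 17.9%.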

How the data were processed

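RNA from hippocampal synaptoneurosomes was sequenced from SMARTer Ultra Low Input libraries, per the labels' protocols. The authors deposited a table of estimated counts per gene, as its values show: they are not negative, not all whole, and sum to between 17628922 and 27263393 per sample. The submitters' processing notes name Salmon 1.3, DESeq2 1.30, GRCm39 and mm10, without saying which gave the table; the annotation release, the strand setting and the handling of reads that match several genes are not given in the sources used here. Columns were mapped to samples by their titles.

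Symbols were found for 22155 of 22255 identifiers in GENCODE M21, by identifier without version; 11 carried the same version as M21, so M21 (GRCm38) was used for names, lengths and similarity only. Members' transcripts were compared with all M21 transcripts on both strands by blastn 2.17.0 (at least 95% identity over at least 100 bases). By this measure 81 of 85 members have a similar gene in M21 and 31 have one in the table, so levels of single members are uncertain. Not all of these are gene copies: Cntnap2 and Madd were found for Rpl7l1 and Gad2 for Rps20. Starts are from RefSeq (GRCm38.p6), found for 65 members.

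The deposited estimated counts were rounded, filtered with edgeR's filterByExpr and scaled by TMM. The quasi-likelihood F-test of edgeR 4.0.16, under R 4.3.3, was run over all genes, p-values were adjusted by Benjamini and Hochberg's method, and 0.05 was the threshold; the code was first tested on simulated data. SE was derived from the log2 fold change and the square root of F. CPM use the TMM-scaled library size, and log2 CPM a prior count of 2. Shares carry 95% Wilson intervals, which account for counting error alone.

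Transcript length was the median over principal (APPRIS) protein-coding transcripts. An earlier definition, the median over all protein-coding transcripts, was replaced after its results had been seen and is reported beside it. Length trends were removed per sample by lowess (span 0.3).

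Named members were the 5 highest per kilobase, the 5 with the smallest p in each direction (no member was higher), the 3 with the largest and the 3 with the smallest vehicle SD, the paralogs with their parents, and Rpsa, Rps6, Rplp0, Rplp1 and Rplp2. Outside the family these were Fau, Rack1, Fmr1 and the gene with the smallest p in each function list. Others named were chosen after their values were seen. The members and all lists were chosen with earlier results of these data known. Alternatives were other size factors, count filters, DESeq2 1.42.0, limma-voom 3.58.1 (plain or with sample weights), edgeR's robust estimation, a block for the title letter, a choroid plexus covariate, the length trend, and each sample left out. Added after seeing the data were the second length definition, and the length trend together with the block or with vehicle A left out, under each length definition. Rps4l was not analysed here. Beside Fau and Rack1, the list of fusion and associated genes held a further gene that is not reported here or counted in its results.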

Additional observations from a re-analysis of the deposited data

Results flagged for a closer look

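Samples far from the rest of their group were sought among the named genes and paralog ratios with Dixon's ratio, the gap to the nearest sample over the whole range. It passed its 95% critical value in 4 of 80 groups; chance flags about 1 in 20 groups, or 4 here. For Rpl7, AM6545 E stood at 77.7 CPM below the remaining AM6545 samples, which spanned 89.8 to 91.5 CPM (ratio 0.876). For Rpl22, vehicle A stood at 42.3 CPM above the remaining vehicle samples, which spanned 29.0 to 31.96 CPM (ratio 0.777). For Fau, AM6545 C stood at 34.1 CPM, with 38.8 to 39.1 CPM in the remaining AM6545 samples (ratio 0.927). The ratio of Rpl36al to Rpl36a per kilobase was 1.39 in vehicle A and 1.53 to 1.55 in the remaining vehicle samples (ratio 0.842). No cause was tested for these 4 values.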

How the results depend on the processing

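Over 27 alternatives, 0 members passed the adjusted threshold and 0 were higher at an unadjusted p under 0.05; the smallest adjusted p of a member was 0.320. The number lower at an unadjusted p under 0.05, 29 in the main comparison, was 2 when scaled to the sum of the members, 17 with limma-voom, 5 with sample weights and 18 with the replicate block. It was between 21 and 35 with the other size factors, the count filters, DESeq2, robust estimation and the choroid plexus covariate. Scaling to the sum of the members takes out any shift they share. Shares of all tested genes in the alternatives are not given here. Leaving out single samples gave 8 to 54, with the median from -0.35 to -0.16. With the length trend removed the count was 3 and the median -0.048 with principal transcripts, against 15 and -0.19 over all coding transcripts, so this result depends on the length definition. With vehicle A also left out they were 1 and -0.021 with principal transcripts and 2 and -0.11 over all coding transcripts. With the replicate block and the length trend they were 1 and -0.031, and 4 and -0.16, respectively. The title letters are not stated to pair samples. Correlations of deviations between same-lettered samples were -0.02, 0.04, 0.34 and -0.02 for A, B, C and E, and only C correlated best with its own letter. Correlations of this kind cannot exclude that lettered samples were handled together. The cause of the shifts in count and median was not tested. The 3 members under the count filter had 0 to 13 counts per sample, so no difference was detectable for them at this depth.

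Of 891 values of 33 named genes, 76 turned sign, none past the adjusted threshold on either side. Scaling to the sum of the members takes out any shift they share, so signs that turn there do not show a direction. Scaled to the sum of the members Rpl13 was at 0.015, Rpl4 at 0.15, Rpl3 at 0.12, Rps9 at 0.066, Rps6 at 0.043, Rpl7l1 at 0.068, Rpl5 at 0.044, Rps27rt at 0.094, Rpl7 at 0.040, Rpl22 at 0.0079, Rpsa at 0.14 and Rplp0 at 0.15. With the length trend removed (principal transcripts) Rpl13 was at 0.023, Rpl4 at 0.019, Rpl3 at 0.013, Rps9 at 0.060, Rps6 at 0.027, Rps27rt at 0.25, Rplp0 at 0.038, Rplp1 at 0.076, Rplp2 at 0.027 and Fau at 0.028. With the length trend removed and vehicle A left out Rpl13 was at 0.071, Rpl4 at 0.0055, Rpl3 at 0.030, Rps6 at 0.017, Rps27rt at 0.32, Rps27l at 0.0092, Rpsa at 0.043, Rplp0 at 0.074, Rplp1 at 0.10, Rplp2 at 0.036 and Fau at 0.049. With the replicate block and the length trend Rpl13 was at 0.046, Rpl4 at 0.044, Rpl3 at 0.028, Rps9 at 0.098, Rps6 at 0.044, Rps27rt at 0.31, Rpsa at 0.019, Rplp0 at 0.074, Rplp1 at 0.10 and Fau at 0.029. With sample weights Rpl4 was at 0.017, Rps9 at 0.041, Rps27rt at 0.16, Rpsa at 0.015 and Rplp0 at 0.035. With the replicate block Rpl4 was at 0.0090 and Rplp0 at 0.018. With lengths over all coding transcripts and the replicate block Rpl4 was at 0.028, Rpl3 at 0.037, Rps9 at 0.0015, Rps27rt at 0.084, Rpsa at 0.0082 and Rplp0 at 0.081. With lengths over all coding transcripts Rpl3 was at 0.019, Rps27rt at 0.028 and Rplp0 at 0.040. With lengths over all coding transcripts and vehicle A left out Rpl3 was at 0.030, Rps27rt at 0.19, Rpsa at 0.028 and Rplp0 at 0.071. With the choroid plexus covariate Rps27rt was at 0.015 and Rplp0 at 0.0096. Leaving out single samples, Rpl4 ran from -0.079 to 0.054, Rps9 from -0.21 to 0.0090, Rps27rt from -0.27 to 0.14, Rpsa from -0.094 to 0.022, Rplp0 from -0.074 to 0.027 and Rack1 from -0.0066 to 0.11.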
